A study of Mus musculus with 8 samples.

Results

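The genes described here were the 4 mouse syndecans (Sdc1, Sdc2, Sdc3 and Sdc4), thrombospondin 1 (Thbs1) and 4 cell-surface molecules that bind it (Cd47, Cd36, Itgav and Itgb3). They were taken by name from the expression table of multipotent progenitors (MPPs) with and without a NUP98-HOXA10hd fusion gene (NA), where they made up 9 of 37980 rows. They were selected on their normalised counts in these 8 libraries, with the NA minus WT differences in view, so that difference is given for the 9 genes as a description with no p-value.

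Syndecans are transmembrane proteins whose outer part carries heparan sulphate chains, and on some members chondroitin sulphate as well. The chains hold growth factors, chemokines and matrix proteins at the cell surface, and metalloproteinases can cut the outer part off. Thrombospondin 1 is a large secreted glycoprotein of platelet granules and of matrix, which binds heparan sulphate, the immunoglobulin-family protein CD47, the scavenger receptor CD36 and integrin alpha v beta 3. In the bone marrow these molecules belong to the means by which blood cells attach to and read their surroundings, and CD47 also tells macrophages not to engulf the cell.

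Each library was made from 1000 bone marrow MPPs of C57BL/6 mice, sorted as Lin- CD48- c-kit+ Sca1+ CD135+ CD150-, and there were 4 libraries per group. NA MPPs came from NA LSL/+; Vav-Cre mice, in which Cre driven by Vav in blood cells switches on the fusion gene from the Rosa26 locus. WT MPPs came from mice described only as wild type, for which no Cre is named, so an effect of Cre cannot be told apart from one of the fusion. The sources used here give neither the ages of the mice nor how many mice stand behind the libraries, so p-values measure only the spread between libraries, which may be technical. The polyA RNA was copied into cDNA and amplified before the libraries were prepared, with no molecular identifiers, and fewer cells of a type and less RNA per cell cannot be told apart in such bulk samples.

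The libraries held 3876906 to 4916987 estimated reads. All values are normalised counts, the RSEM estimates of reads per gene after division by a size factor per library, and a difference is given as log2(normalised count + 1) in NA minus WT. The transcripts of the sort markers were present in all libraries, with Kit at 1103 to 1490, Flt3 at 1274 to 1498 and Cd34 at 3239 to 3854, whereas Slamf1, which encodes CD150, lay between 3.69 and 47.9. Transcripts of 2 of the 7 gate and blood identity markers were lower in NA by limma. Cd48, whose product the sort selects against, was at 12.2 to 22.4 in NA and 34.2 to 83.8 in WT (log2 difference -1.58, limma adjusted p = 0.0071), and Ly6a, which encodes Sca1, at 1221 to 1408 and 1482 to 1614 (-0.28, limma adjusted p = 0.026). Their part in the results was not tested. The groups also differed in sex-linked transcripts. Xist was at 0.940 to 2.80 in NA and 869 to 1286 in WT libraries, and Eif2s3y at 516 to 666 in NA and at most 0.888 in WT, so sex of the donors and genotype cannot be told apart. The fourth library of each group lay close to a weighted sum of the other 3 of its group. The variance left beyond counting noise, relative to the squared mean of each gene, was 0.00808 for the fourth NA library against 0.0155 to 0.0369 for the others. It was 0.00199 for the fourth WT library against 0.00763 to 0.0238. Results are therefore also given without the fourth library of each group.

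Of the 9 genes, 8 passed the filter on low values (at least 10 in at least 4 of 8 libraries) and 1, Cd36, did not. By limma with Benjamini-Hochberg adjustment over 11451 genes, 7 of the 8 were past an adjusted p of 0.05, against 17.9% of all genes tested. Sdc2, Sdc4, Cd47 and Itgav were higher in NA MPPs, a direction called for 10.1% of all genes, and Sdc1, Sdc3 and Thbs1 were lower, a direction called for 7.87%. The 4 NA and 4 WT values did not overlap for the same 7 genes, which held for 22% of all genes tested. Without the fourth libraries 3 of the 8 remained past the threshold, namely Sdc4, Thbs1 and Cd47. Over all 11451 genes tested the calls fell as well, from 2053 to 524. Without the fourth NA library alone Sdc2 was not past it. These shares describe genes picked for this difference.

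**Figure D1:**
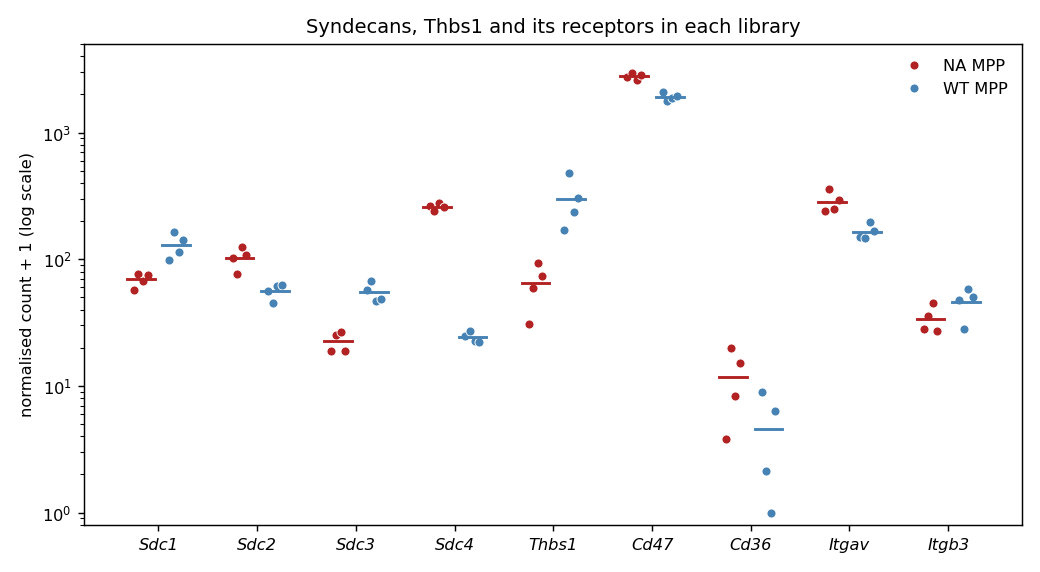
Normalised count + 1 (log scale) of each gene in the 4 NA (red) and 4 WT (blue) MPP libraries, in the order of libraries 1 to 4, with a line at the group mean. Sdc4 is at 240 to 276 in NA and 21.3 to 26.0 in WT, Thbs1 lies lower in NA, and the values of Cd36 and Itgb3 overlap between the groups.

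Among the syndecans, Sdc4 showed the widest separation. Sdc4 (GRCm38, chr2:164424247-164443887, minus strand) encodes the syndecan found at focal adhesions, where it acts together with integrins. Its normalised counts were 261, 240, 276 and 255 in NA libraries 1 to 4, and 24.0, 26.0, 21.6 and 21.3 in WT libraries 1 to 4. Every NA library thus stood far above every WT library, and the values were tight within each group, with coefficients of variation of 5.84% and 9.54%. The means were 258 ± 15.1 in NA and 23.2 ± 2.22 in WT (SD, n = 4 each), a ratio of 11.1. The log2 difference was 3.42 with a standard error of 0.18, and 3.39 without the fourth libraries.

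The bases before the start of Sdc4 are shown because this gene differed most. RefSeq sequence of GRCm38.p6 upstream of its protein-coding start, chr2:164443189-164443438 on the minus strand, lies within the first intron of a longer non-coding Sdc4 transcript in GENCODE M21. The stretch upstream of Sdc1 (chr12:8771146-8771322, plus strand), a syndecan with the opposite difference, is set beside it and ends where the annotated gene begins. Capitals mark GGGCGG (the GC box), TATAA and GGGAATTCC, read on both strands.
Sdc4: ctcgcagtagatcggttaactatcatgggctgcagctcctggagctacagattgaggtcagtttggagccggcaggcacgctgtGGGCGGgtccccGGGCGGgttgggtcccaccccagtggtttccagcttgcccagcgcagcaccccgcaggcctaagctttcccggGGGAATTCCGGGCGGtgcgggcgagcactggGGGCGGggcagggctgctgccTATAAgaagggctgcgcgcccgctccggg
Sdc1: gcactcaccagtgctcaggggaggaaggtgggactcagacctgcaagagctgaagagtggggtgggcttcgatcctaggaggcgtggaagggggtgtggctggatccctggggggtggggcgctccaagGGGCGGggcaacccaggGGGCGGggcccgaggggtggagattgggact
GGGCGG was found 4 times in the Sdc4 stretch, and in 32.7% of 32851 mouse windows of 250 bases. TATAA began 29 bases before the Sdc4 start, and 22.8% of all windows held it. GGGAATTCC, letters of a kappa B site that were picked after the Sdc4 sequence had been seen, began 81 bases before the start and occurred in 0.210% of windows; a GGGCGG follows it directly, with no shared base. The full Sdc1 window held GGGCGG 3 times and TATAA 2 times (overlapping, once on each strand), and some of these lie beyond the printed stretch. Windows were found for 6 of the 9 genes, Sdc1, Sdc3, Sdc4, Cd47, Cd36 and Itgav, and not for Sdc2, Thbs1 and Itgb3. GGGCGG occurred 3 times in that of Sdc3, 2 times in both of Cd47 and in that of Cd36, and in that of Itgav it was not found. TGANTCA (AP-1), TGACGTCA (CRE) and GCGTGGGCG (EGR), present in 6.75%, 1.55% and 0.536% of all windows, were in none of the windows of these 6 genes.

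Sdc1 (chr12:8771323-8793715, plus strand), known as CD138, is the syndecan of epithelia and plasma cells. It was measured at 56.0, 76.1, 66.5 and 74.4 in NA libraries and at 96.8, 162, 113 and 141 in WT libraries. All NA values were below the lowest WT value, and the WT libraries spread more widely. The mean was 68.3 ± 9.19 in NA and 128 ± 29.1 in WT (SD, n = 4), WT being 1.88 times NA, with a log2 difference of -0.88 (SE 0.21). Plasma and B cell markers summed to 141 to 246 in NA and 208 to 289 in WT, ranges that overlap. Pax5 was at 0 in every library, and 0 of 2 tested markers were past the threshold. Most of that sum came from Cd79b, with means of 163 in NA and 220 in WT. Jchain and Mzb1 had means of 8.33 and 6.37 in NA and 6.36 and 8.07 in WT. The part of these markers in the Sdc1 difference was not tested.

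Sdc2 (chr15:32920723-33034935, plus strand) encodes the syndecan typical of fibroblasts and endothelium. Its values were 101, 76.1, 124 and 107 in NA and 55.0, 44.2, 60.3 and 61.3 in WT libraries. The lowest NA value, in library 2, was above the highest WT value, in library 4. Means were 102 ± 19.8 and 55.2 ± 7.85 (SD, n = 4), a ratio of 1.85 and a log2 difference of 0.86 (SE 0.22). The endothelial and stromal markers summed to 1083 to 1240 in NA and 957 to 1284 in WT, with Cdh5, Col3a1 and Dcn at 0 in all libraries, 0 of 5 tested markers higher and 1, Tek, lower. Most of that sum came from Emcn and Esam. Among the stromal markers, Cxcl12, which did not pass the filter, was at 7.47, 0, 101 and 28.3 in NA libraries, in the same order as Sdc2. In WT libraries it was at 3.55, 6.79, 13.7 and 5.33, which is not the order of Sdc2. Pdgfrb was at 74.8 ± 22.3 in NA and 44.7 ± 10.7 in WT (SD, n = 4, limma adjusted p = 0.091), and Lepr reached 19.4 in NA library 3 and at most 2.36 in any other. Col1a2 and Col1a1 ran the other way. Col1a2 was at 24.8 to 51.3 in NA and 54.2 to 64.9 in WT (limma adjusted p = 0.071). Col1a1, which did not pass the filter, had means of 0.764 and 3.44. Their part in the Sdc2 difference was not tested.

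Sdc3 (chr4:130792537-130826319, plus strand), the syndecan best known from the nervous system, was among the lowest of the 9 genes in NA. In WT its mean was above those of Itgb3, Sdc4 and Cd36. NA libraries held 17.7, 24.4, 25.9 and 17.7, and WT libraries 55.9, 66.8, 45.5 and 47.9. The groups were apart, with the highest NA value well under the lowest WT value. Means were 21.4 ± 4.32 in NA and 54.1 ± 9.60 in WT (SD, n = 4), WT being 2.52 times NA, with a log2 difference of -1.30 (SE 0.28). An antisense gene annotated over its exons, Gm12970, was listed at 0 in every library.

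The makeup of the syndecans differed between the groups when counts were divided by the exonic length of each gene. The summed level of the 4 syndecans was 152 ± 10.6 per kb in NA and 67.4 ± 7.58 per kb in WT (SD, n = 4), with ranges of 140 to 165 and 59.8 to 76.4. Sdc4 made up 66.8% ± 1.65 of that sum in NA and 13.6% ± 1.62 in WT, while Sdc1 made up 11.9% ± 2.03 in NA and 49.4% ± 5.78 in WT. Sdc4 was thus the leading syndecan in all 4 NA libraries and Sdc1 in all 4 WT libraries. The share of Sdc3 was 2.36% ± 0.48 against 13.4% ± 2.04, and that of Sdc2, 18.9% ± 2.48 against 23.6% ± 4.92, overlapped between the groups. With the longest transcript as the length, Sdc4 took 65.7% in NA and 12.4% in WT. Amplified cDNA need not cover a transcript evenly, which limits any comparison between genes.

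**Figure D2:**
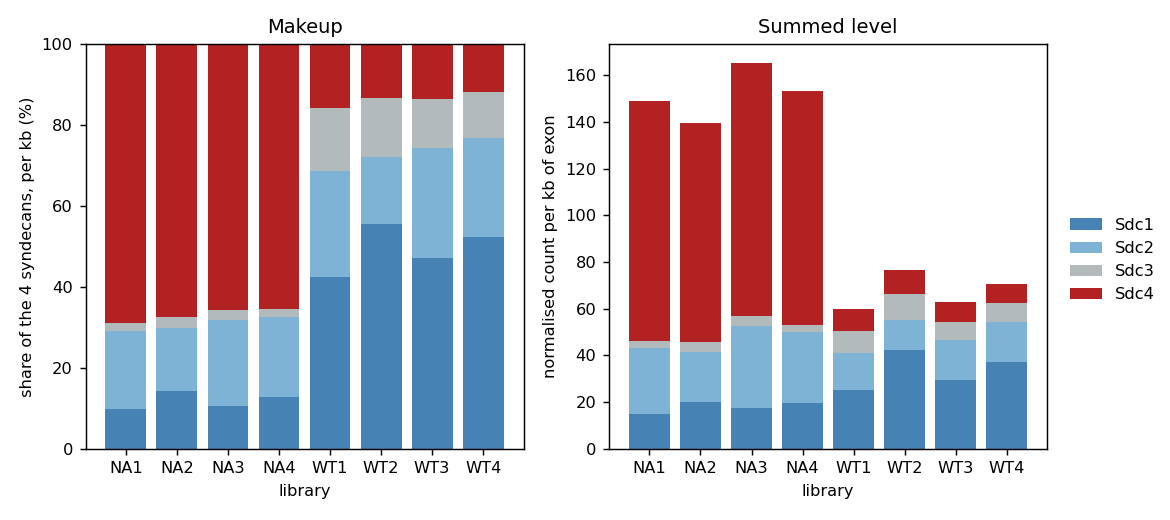
Left, share (%) of each syndecan in the sum of the 4 syndecans per kb of exon in each library; right, the same as normalised counts per kb. Sdc4 takes 65.4% to 68.9% of the sum in NA libraries and 11.8% to 15.7% in WT libraries, and the summed level is higher in every NA library than in any WT library.

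Thbs1 (chr2:118111876-118127133, plus strand), the ligand, was lower in NA MPPs and varied more than the syndecans. Its values were 29.9, 58.3, 92.3 and 73.2 in NA and 169, 479, 236 and 305 in WT libraries. The highest NA library remained below the lowest WT library, yet the values ranged about as widely within each group, from NA library 1 to 3 and from WT library 1 to 2, with coefficients of variation of 41.6% and 44.9%. The means were 63.4 ± 26.4 and 297 ± 133 (SD, n = 4), WT being 4.69 times NA, and the log2 difference was -2.22 (SE 0.34), or -2.27 without the fourth libraries. The lincRNA Gm29233 is annotated over Thbs1 on the other strand and was not analysed here; whether reads were counted by strand is not given in the sources used here.

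Thrombospondin 1 is also a product of platelets, megakaryocytes, monocytes and macrophages, so markers of those cells were read beside it. The 13 megakaryocyte and platelet markers reported here summed to 312 to 392 in NA and 322 to 403 in WT, ranges that overlap. Gp6 and Tubb1 were at 0 in all 8 libraries, Pf4 was at 63.8 to 105 in NA and 50.1 to 88.3 in WT, and of 7 tested markers 0 were higher and 1, Selp, was lower in NA. The sum of the 13 monocyte and macrophage markers was lower in NA, as Thbs1 was. It was 1738 to 1834 in NA and 1899 to 2194 in WT, mostly from Lyz2, and 73.3 to 85.9 and 165 to 187 without it, a sum added after the values were seen. Of 6 tested markers 1, Cd163, passed the threshold and was lower in NA (log2 difference -1.41), and none of the 13 was at 0 throughout. The 9 erythroid markers also ran lower in NA, at 35.4 to 64.9 against 147 to 296, with Alas2 at 0 throughout and Hbb-bt past the threshold. The part of these cells in the Thbs1 and Sdc3 differences was not tested.

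Across the 8 libraries the genes most like Thbs1, among 8999 tested genes with a mean of at least 50, were Mrpl27 (Pearson r = 0.98 on log2 values), ENSMUSG00000085362 (0.98), Mbd6 (0.98), 2410002F23Rik (0.98) and Cdcp1 (0.97). The most opposed were Commd10 (-0.99), Mcur1 (-0.98) and Pkn3 (-0.98). Mrpl27 encodes a protein of the mitochondrial ribosome, and Cdcp1 a transmembrane protein. Among the 9 genes, Sdc1 followed Thbs1 with r = 0.96, and with 0.83 once the group means were removed. Sdc4 had r = -0.88 overall and 0.32 within groups, and Cd47 -0.93 and -0.60. All these points share the difference between the groups. The fourth libraries lay close to a weighted sum of the others and may not be separate points. For these reasons the coefficients are descriptions.

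**Figure D3:**
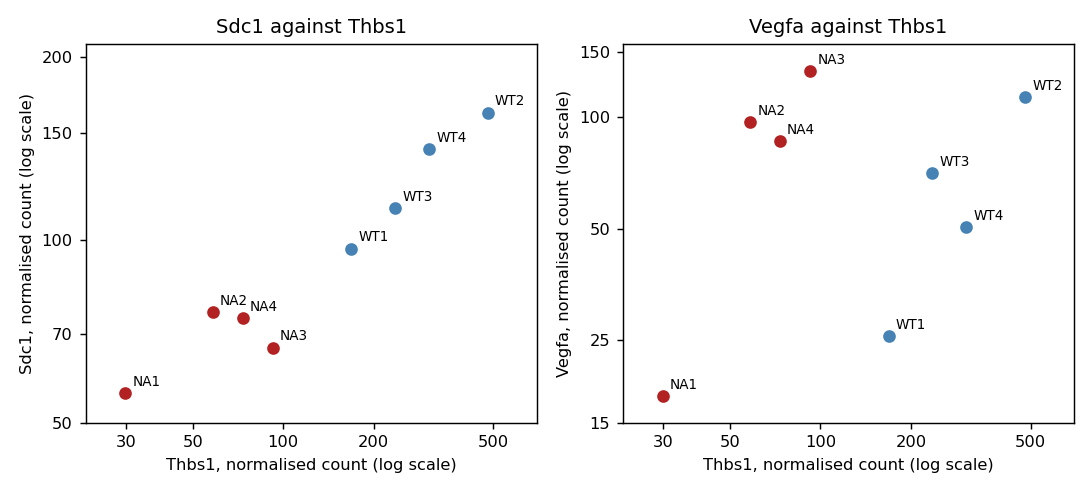
Normalised counts (log scales) of Sdc1 (left) and Vegfa (right) against Thbs1 in the 4 NA (red) and 4 WT (blue) MPP libraries, each point labelled by library. Sdc1 follows Thbs1 in order within WT, where both are lowest in library 1 and highest in library 2. Vegfa shares its lowest and highest library with Thbs1 in each group, the middle libraries are in the opposite order, and its values overlap between groups.

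Of the receptors, Cd47 was by far the most abundant. Cd47 (chr16:49800533-49915010, plus strand) was at 2760, 2945, 2611 and 2837 in NA and at 2098, 1766, 1864 and 1937 in WT libraries. The groups did not overlap, and the values in each were close together. The means were 2788 ± 141 and 1916 ± 140 (SD, n = 4), a ratio of 1.46, with a log2 difference of 0.54 (SE 0.08), the smallest of the 7 past the threshold. It was 0.41 when the trend with GC content was removed.

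Itgav (chr2:83724397-83806916, plus strand) encodes integrin alpha v, which pairs with several beta chains. It was at 238, 358, 247 and 292 in NA and at 150, 146, 195 and 165 in WT libraries. Every NA library was above every WT library. The means were 284 ± 55.0 and 164 ± 22.1 (SD, n = 4), a ratio of 1.73 and a log2 difference of 0.78 (SE 0.16). Gm13684, annotated over Itgav exons on the other strand, reached at most 4.55 in any library.

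Itgb3 (chr11:104608000-104670476, plus strand) encodes integrin beta 3, the partner of alpha v in the thrombospondin receptor and of alpha IIb on platelets. Its values were 27.1, 34.8, 44.3 and 26.0 in NA and 47.1, 27.2, 56.9 and 49.7 in WT libraries. WT library 2 lay among the NA values, so the groups overlapped, and the difference of -0.42 (SE 0.31) was within the spread between libraries. The means were 33.0 ± 8.48 and 45.2 ± 12.7 (SD, n = 4). Itga2b, which encodes alpha IIb, was at 53.6 to 120 in NA and 71.0 to 117 in WT, and was not past the threshold (limma log2 difference -0.20, adjusted p = 0.62).

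Cd36 (chr5:17781690-17888801, minus strand) encodes the fatty-acid and thrombospondin receptor of platelets, macrophages and endothelium. It was at 2.80, 18.8, 7.39 and 14.2 in NA and at 7.99, 1.13, 0 and 5.33 in WT libraries. These values stand on at most 20 reads in an NA library and 9 in a WT library, and a difference was not detectable at this depth. The groups overlapped, with means of 10.8 ± 7.10 and 3.61 ± 3.71 (SD, n = 4).

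Per kb of exon, Cd47 led in both groups, at a mean of 444 in NA and 305 in WT. In NA it was followed by Sdc4 (101), Sdc2 (28.9), Itgav (26.4), Sdc1 (17.9), Thbs1 (10.4), Itgb3 (5.60), Sdc3 (3.58) and Cd36 (3.01). In WT Thbs1 came after Cd47 (48.9), then Sdc1 (33.6), Sdc2 (15.7), Itgav (15.3), Sdc4 (9.12), Sdc3 (9.03), Itgb3 (7.66) and Cd36 (1.01). Sdc4 thus stood next to Cd47 in NA and below Sdc1, Sdc2 and Itgav in WT. Neighbours that did not keep their order in all 4 libraries were Sdc2 and Itgav (3 of 4) and Sdc3 and Cd36 (2 of 4) in NA, and Sdc2 and Itgav (2 of 4), Sdc4 and Sdc3 (3 of 4) and Sdc3 and Itgb3 (2 of 4) in WT. With the longest transcript as the length, Itgav passed Sdc2 in both groups and Sdc3 passed Sdc4 in WT.

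The other genes of the pathway were taken by role, in 9 lists. Of 135 genes found there, 83 were tested, and 13 rose and 2 fell in NA MPPs by limma (adjusted p below 0.05). This is 18.1% of those tested, close to the 17.9% of all genes, and their median difference was 0.16 against -0.01 over all genes. Under scaling to the total count, which moves the median of all genes to -0.08, the 15 calls were 11 higher and 4 lower. Without the fourth libraries, 6 of the 15 remained past the threshold, all of them higher, while the calls over all genes fell from 2053 to 524.

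In the machinery that builds glycosaminoglycan chains, 8.33% of tested heparan sulphate genes and 10% of chondroitin sulphate genes passed the threshold. For linker and precursor genes it was 0%. The share over all genes tested was 17.9%, and the gap was not tested in lists this short. Of 12 tested genes of heparan sulphate synthesis and editing 1 rose, Extl2, an exostosin-like glycosyltransferase, from 100.1 ± 29.4 in WT to 157 ± 15.9 in NA (SD, n = 4; log2 difference 0.69, limma adjusted p = 0.031), and it was not past the threshold without the fourth libraries (limma adjusted p = 0.21). Ext2, a subunit of the heparan sulphate polymerase and the most abundant of that list, was at 474 ± 53.8 and 429 ± 12.0 (limma adjusted p = 0.40). Of 10 chondroitin sulphate genes 1 rose, Csgalnact1, which starts the chain, from 186 ± 18 to 336 ± 83.3 (0.82, limma adjusted p = 0.0047, and 0.054 without the fourth libraries). Its paralogue Csgalnact2, the most abundant of the list over all 8 libraries together though in neither group alone, was at 325 and 248 (limma adjusted p = 0.13). Of 13 genes that supply precursors and the linker, and of 6 other proteoglycans, 0 passed by limma. Their most abundant members over the 8 libraries together were Slc35b3, a transporter of the sulphate donor, at 315 in NA, where Ugp2 was higher at 385, and 413 in WT (adjusted p = 0.072), and Srgn, the granule proteoglycan serglycin, at 6714 and 5826 (adjusted p = 0.11).

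Among syndecan partners and shedding enzymes, 2 of 14 tested genes rose, or 14.3% against 17.9% of all genes tested. Both encode enzymes that cut cell-surface proteins. Mmp14, a membrane-bound matrix metalloproteinase, was at 72.8, 47.0, 47.1 and 50.8 in NA and at 11.5, 15.9, 9.11 and 20.4 in WT libraries. It lay higher in every NA library, 3.82 times in the mean (log2 difference 1.90, SE 0.34, limma adjusted p = 0.0017). Adam10, a disintegrin metalloproteinase, was at 1949 ± 185 in NA and 1184 ± 82.3 in WT (SD, n = 4; 0.72, limma adjusted p = 0.00012). Both were past the threshold without the fourth libraries as well (limma adjusted p = 0.019 and 0.0020). Adam17, another shedding enzyme of the list and outside the rule for naming, was not past it. It was at 230 in NA and 266 in WT (log2 difference -0.23, limma adjusted p = 0.30). Sdcbp, the adaptor syntenin that binds the inner tail of syndecans, was at 3153 and 2729 (0.21, limma adjusted p = 0.058).

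Of 10 tested integrin partners and other thrombospondin receptors 3 rose and 1 fell, or 40% called against 17.9% of all genes tested. The gap was not tested. Itgb1, the beta 1 integrin chain, was at 398, 533, 451 and 471 in NA and at 245, 260, 190 and 233 in WT libraries, with no overlap (log2 difference 0.996, SE 0.13, limma adjusted p = 0.00019). Itgb5, which pairs with alpha v, was at 280 ± 31.7 in NA and 181 ± 14.7 in WT (0.63, limma adjusted p = 0.0048, and 0.078 without the fourth libraries). Stim1, an endoplasmic reticulum calcium sensor, was at 282 ± 65.5 and 138 ± 19.6 (1.01, limma adjusted p = 0.0012). Itga4, the alpha chain of the homing integrin VLA-4, fell from 640 ± 53.6 in WT to 491 ± 40.3 in NA (-0.38, limma adjusted p = 0.019, and 0.21 without the fourth libraries). Calr, calreticulin, the most abundant of the list, was at 644 and 655 (limma adjusted p = 0.89).

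Of 14 tested partners of Cd47 and Cd36 and their proximal signalling 5 rose and 0 fell, or 35.7% called against 17.9% of all genes tested. The gap was not tested. Prkg1, a cGMP-dependent kinase, was at 13.6 ± 5.10 in NA and 2.53 ± 1.47 in WT (SD, n = 4; log2 difference 2.09, limma adjusted p = 0.027), on at most 4 reads in a WT library. Cd9 and Cd81 are tetraspanins. Cd9 was at 525 ± 76.4 and 284 ± 34.7 (0.88, limma adjusted p = 0.00055), and Cd81, the most abundant of the list, at 2118 ± 112 and 1545 ± 232 (0.46, limma adjusted p = 0.0052). Lyn, a Src-family kinase, was at 358 ± 24.6 and 250 ± 60.5 (0.55, limma adjusted p = 0.033). Cd9 was past the threshold without the fourth libraries, and Prkg1, Cd81 and Lyn were not (limma adjusted p = 0.17, 0.062 and 0.15). The fifth gene, Gnai2, was outside the rule for naming and is given since the count is small. It was at 1200 ± 75.1 in NA and 892 ± 52.6 in WT (log2 difference 0.43, limma adjusted p = 0.0034). Without the fourth libraries it was past the threshold too (limma adjusted p = 0.043).

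Of 4 tested genes in the list on latent TGF-beta and proteases of thrombospondin 1, 1 rose and 1 fell. The share called was 50% against 17.9% of all genes tested, and the gap was not tested. Neither of these 2 genes passed without the fourth libraries (limma adjusted p = 0.17 for F2r and 0.076 for Nrros). The 4 were Ltbp3, Nrros, F2r and Vegfa, of which F2r encodes a receptor and Vegfa a growth factor. F2r, the thrombin receptor PAR1, was at 158 ± 13.4 in NA and 109 ± 13.2 in WT (SD, n = 4; 0.53, limma adjusted p = 0.031), and Nrros, which anchors latent TGF-beta on myeloid cells, at 1106 ± 198 and 1515 ± 94.5 (-0.47, limma adjusted p = 0.011). The other thrombospondins did not pass the filter. Thbs2 was at 1.87 to 15 in NA and 0 to 6.79 in WT, Thbs3 at 0 in every NA library and 0 to 10.2 in WT, Comp at 0 in NA and 0.888 to 3.40 in WT, and Thbs4 at 0 in all 8 libraries. Thbs1 was thus the one thrombospondin that passed the filter.

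**Figure D4:**
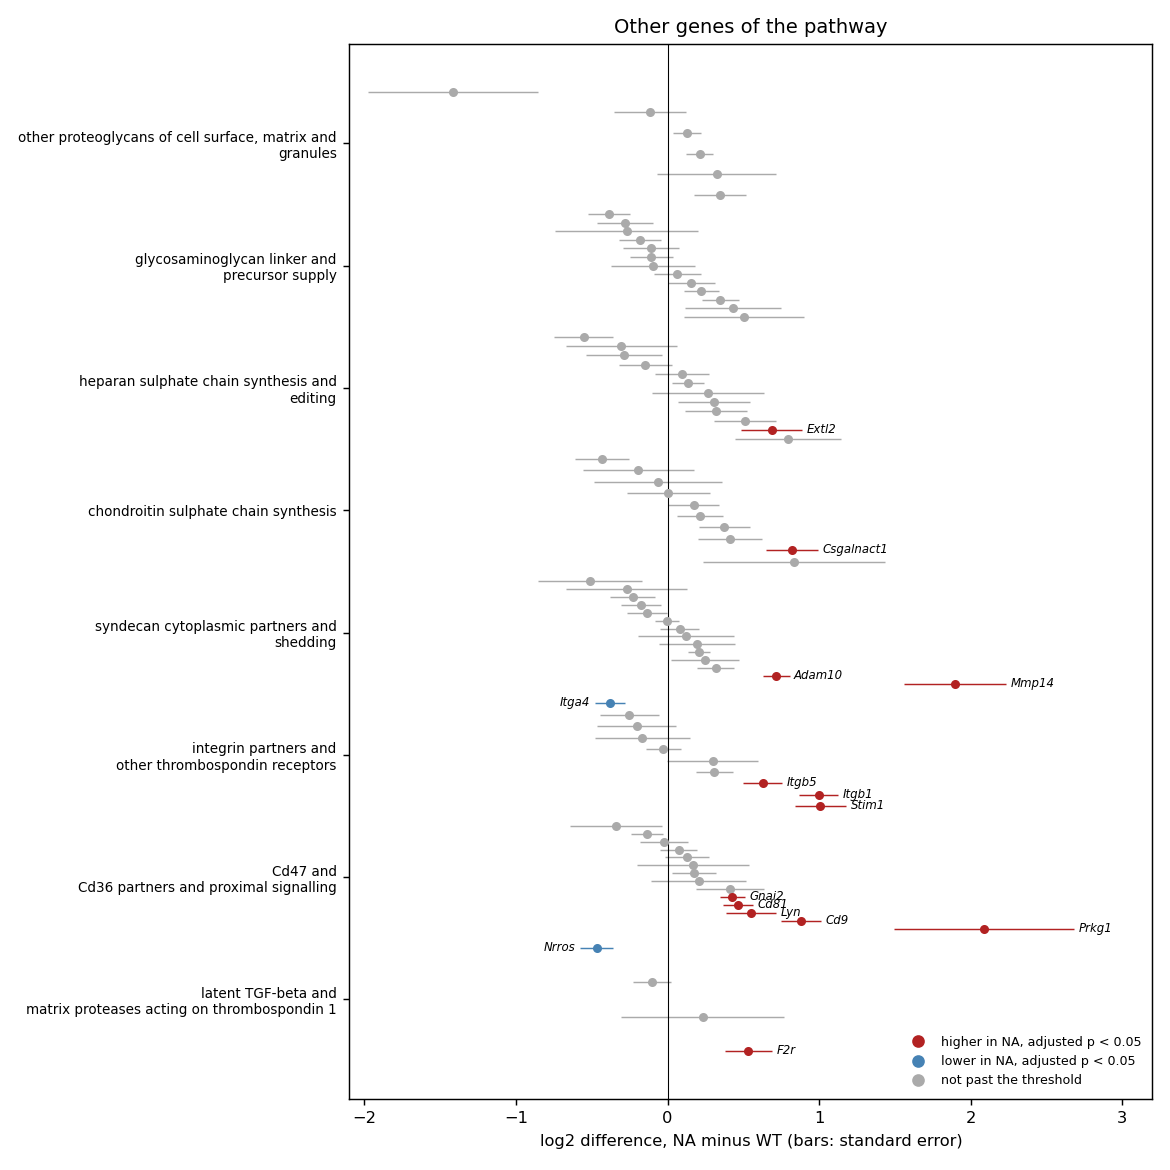
Log2 difference (NA minus WT) with its standard error for the 83 tested pathway genes, one row of the axis per list, genes sorted within a list. Red genes rose (13), blue genes fell (2) and grey genes were not past an adjusted p of 0.05; Mmp14 and Prkg1 lie farthest to the right.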

How the data were processed

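The deposited table holds signal values, RSEM estimated reads per Ensembl gene that the authors divided by a size factor per library. In 98.6% to 99.0% of low values (0.5 up to 100 steps) a value lay within 0.1 of a whole multiple of its library's step, which gave the estimated reads. The labels' processing notes name bcl2fastq, RSEM, DESeq2 and mm10, without versions; the aligner, annotation and use of strand are not given in the sources used here.

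Symbols, exonic lengths and coordinates came from GENCODE M21 (GRCm38) and sequences from RefSeq (GRCm38.p6). Of 37980 rows 32916 had a symbol. Genes at 10 or more in at least 4 libraries were fitted in limma 3.58.1 (R 4.3.3) on log2(value + 1) with a variance trend, NA against WT, two-sided, and adjusted by Benjamini-Hochberg over 11451 genes; the fit was tested on simulated data. The members and gene lists were chosen with earlier results of these data known. Named were all members, per list up to 3 genes past the threshold in each direction and its most abundant tested gene, and the 5 most and 3 least like Thbs1. Of 137 listed pathway names 135 were found. Some marker genes are not reported here.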

Additional observations from a re-analysis of the deposited data

Results flagged for a closer look

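In groups of 4 libraries, 5 of 58 values tested held a library far from the other 3 by Dixon's criterion, where chance gives about 2.9. Extl2 was at 181 in NA library 1 and 149 to 151 in the other NA libraries. Mmp14 was at 72.8 in NA library 1 against 47.0 to 50.8. Itgb5 was at 203 in WT library 3 against 172 to 176. Prkg1 was at 21.2 in NA library 3 against 10.3 to 11.8. Cd81 was at 1891 in WT library 3 against 1402 to 1449. None of the 9 syndecan, Thbs1 and receptor genes stood out in this way.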

How the results depend on the processing

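As reported, 2053 genes were called (56.1% higher). Without the fourth libraries there were 524, and 6 of the pathway genes in place of 15; leaving out 1 library at a time gave 1125 to 2176, lowest without the fourth NA library (1279 without the fourth WT library), and 10 to 17 pathway genes. With total-count scaling 41.4% of 2240 calls were higher. No low-value filter gave 1574 calls, no variance trend 1420, depth class as covariate 1635, and voom weights on estimated reads, chosen after seeing the data, 2030. The same-numbered libraries deviated together with r between 0.013 and 0.16, so the numbers do not pair them; with a replicate block 2004 genes and 15 pathway genes were called. No named gene past the threshold changed direction; Calr, not past it, ranged from -0.10 to 0.05. With a pseudocount of 5 the Sdc4 difference was 3.22. The planned count-model fits were not run, because the values could be returned to whole reads only in part. Lyn lost its call in 11 alternatives, Extl2 in 9, F2r in 8, Prkg1 in 7, Itga4 in 5 and Nrros in 2; Slc35b3 gained one in 4, and Srgn, Csgalnact2 and Sdcbp in 1 each. Depth limited Cd36 and Prkg1.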

Other observations

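Vegfa, which encodes vascular endothelial growth factor A and was noticed after the values were seen, was at 17.7, 96.8, 133 and 86.2 in NA libraries 1 to 4 and at 25.7, 113, 70.6 and 50.6 in WT libraries. The groups overlapped, and the difference was 0.23 (limma adjusted p = 0.80). Within groups its log2 values followed those of Thbs1 with r = 0.92, against 0.31 over all 8 libraries. The first library was lowest for both genes in each group. The middle libraries of each group were in the opposite order for the 2 genes. Timp3, an inhibitor of metalloproteinases and also noticed afterwards, was at 2.66, 69.1, 26.2 and 25.7 in WT libraries and at 0 to 4.72 in NA libraries, and did not pass the filter.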
